A study of Danio rerio with 6 samples.

Results

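The genes described here were detected in the smallest zebrafish follicles and not in those of the next stage. RNA was sequenced from follicles at primary growth (PG) and at the pre-vitellogenic stage (PV), with 3 libraries per stage. All fish were wild type and of the AB strain. The follicles of each preparation came from the pooled ovaries of 3 females and were separated by size, PG follicles being the small and transparent ones and PV follicles the larger ones retained between a pair of coarser sieves. Both stages were taken from the same groups of fish. Neither stage received a treatment, and ages are not given in the sources used here. Each library holds oocytes together with whatever somatic cells stayed attached.

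A gene was chosen by its raw counts, with at least 1 count in each of the 3 PG libraries and 0 in each of the 3 PV libraries. Of the 31540 genes in the count table, 60 met this rule, and 57 were left after 3 genes named Metazoa_SRP, copies of the signal recognition particle RNA, had been left out. Since the rule used the counts of both stages, the absence of these genes from PV libraries is how they were selected on these data and is not a finding, and no test of the difference between the stages is used as support for anything said of them.

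In zebrafish, follicles grow from PG to PV before yolk is taken up. During this step the oocyte enlarges and forms cortical alveoli, and the flat cells around it become a continuous layer of follicle cells. Oocytes of the PG stage are arrested in meiosis and store RNA and protein for the egg and the embryo. In bulk follicles, fewer cells of a type and less RNA per cell cannot be told apart, so a count of 0 in PV libraries describes the follicle preparation and not any one cell.

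The libraries held between 14492086 and 36603108 counts, PG replicate 3 being the smallest. Scaling by TMM, the edgeR method that sets libraries to a common level for most genes, gave factors of 0.863 to 0.869 for PG and 1.144 to 1.163 for PV. All levels here are CPM (counts per 1000000) on that scale. Oocyte markers fixed as a list of 8 genes summed to between 7860 and 8272 CPM in PG and between 3493 and 3689 CPM in PV, with none at 0. Most of both sums came from zp3b, buc and zar1. Their means were 3503, 2281 and 1569 CPM in PG and 1361, 1080 and 481.5 CPM in PV. Means of gdf9 (57.95 and 56.06 CPM) and dazl (115.6 and 118.9 CPM) were nearly equal in PG and PV. Bmp15 (217.3 and 195 CPM) and figla (53.44 and 33.1 CPM) were lower in PV, and ddx4 (224.5 and 273.7 CPM) was higher. Markers of follicle cells summed to between 3.44 and 5.47 CPM in PG and between 59.6 and 71.5 CPM in PV over the 5 genes measured, so markers of both cell types of a follicle were found in both stages.

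The 57 genes were all rare. Together they held 434 counts in PG replicate 1, 404 in replicate 2 and 222 in replicate 3. On the CPM scale the sums were 13.7, 16.0 and 17.8, so the smallest library stood highest. All 1060 counts amounted to 0.00132% of the PG counts. The gene with the most counts had 54 over the 3 libraries, the median gene had 14, and the lowest had 3.

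**Figure D1:**
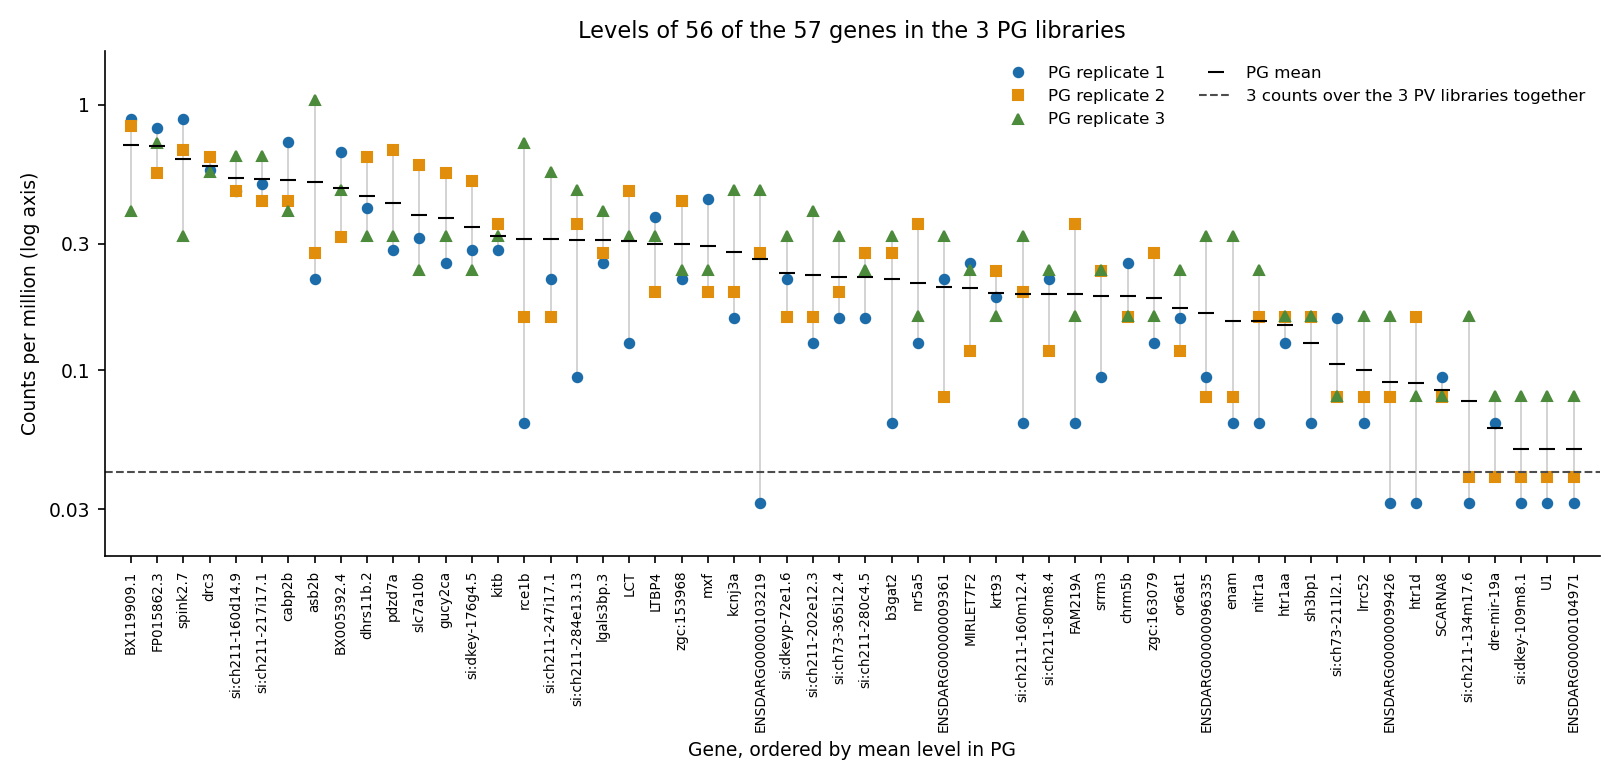
Level of 56 of the 57 genes in the 3 PG libraries, in CPM on a log axis, ordered by the mean (black bar), with grey lines joining the lowest and highest library. The means run from 0.706 CPM down to 0.0504 CPM, and the lowest genes lie close to the dashed line at 0.0416 CPM, the level of 3 counts over the PV libraries together.

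Depth limits how far a count of 0 in PV can be read. Over the 3 PV libraries together, 3 counts were worth 0.0416 CPM, and this was taken as the upper limit that a count of 0 allows. It covers counting error only, since no molecular identifiers were described. Counts here are converted coverage, so the limit is nominal. Within PG, a count of 0 also occurred where far more than 3 counts were due. Si:dkey-19d21.2, picked after its values were seen, had 142, 120 and 0 counts, with 57.8 due in PG replicate 3. The bounds are therefore not firm limits on the PV level. Against the nominal limit, the mean PG level, taken without its error, was at least 17-fold higher for the most abundant gene, and the median bound was 5.42. The lowest bound, 1.21, belonged to genes with 1 count in each PG library and is the smallest that the rule lets through. All bounds describe the counts that chose the genes. For the 12 most abundant genes the median bound of 12.7 fell to 4.24 with 9 counts over PV as the limit and to 3.14 with 3 counts in each PV library. The bound reached 10 for 12 genes, 5 for 32 genes and 2 for 52 genes. At its PG level, the most abundant gene would have had 50.9 counts over the PV libraries, the median gene 16.3 and the rarest 3.64, and 10 genes would have had 9 or fewer.

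**Figure D2:**
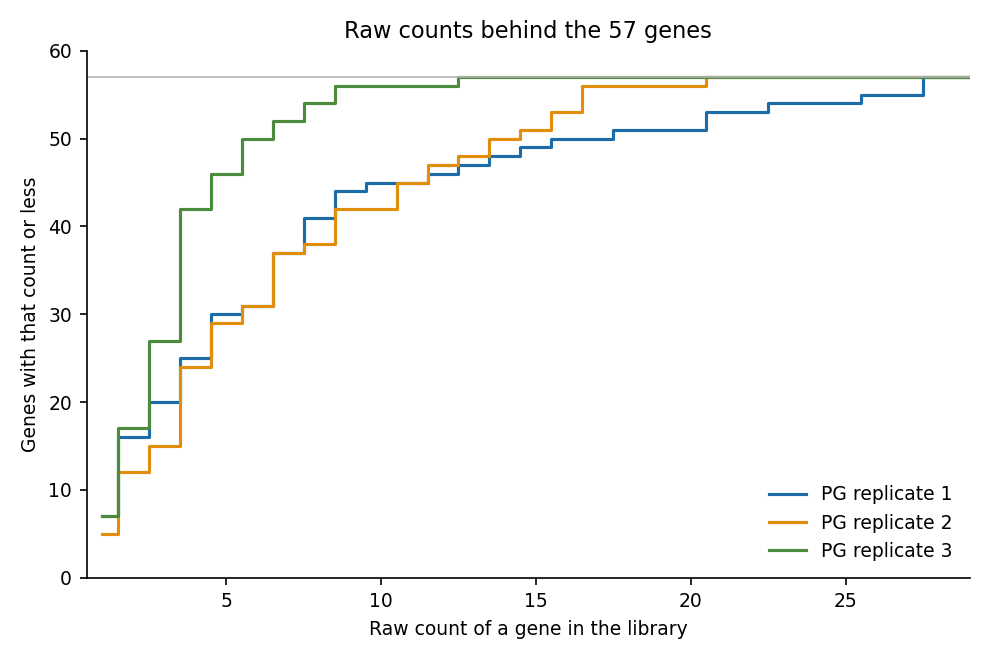
Cumulative number of the 57 genes (y axis) by raw count in a library (x axis), with 1 line per PG library. The curve of PG replicate 3 rises first and ends at 13 counts, against 28 in replicate 1 and 21 in replicate 2.

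Few of these genes were counted more than a few times in any library. The median count was 5 in PG replicate 1, 5 in replicate 2 and 4 in replicate 3, and the highest counts were 28, 21 and 13. At least 2 counts in every PG library were found for 47 genes and at least 5 for 10 genes, and none had 10 or more in every one. Counts came from coverage, and across all libraries values of 2 and 4 were more frequent (3498 and 3504 times) than values of 1, 3 and 5 (2521, 2816 and 1875 times). Even numbers made up 54.8% of all values from 1 to 12 and 49.0% of the 149 such values of these genes. Whatever the share of even values, a count of 1 or 2 is by its derivation a converted coverage and not a number of fragments seen.

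By identity, 33 of the 57 genes carried a gene symbol and 24 only a clone name or an Ensembl identifier. Of the 34 that could be matched to RefSeq (zebrafish assembly GRCz12tu, used for names and neighbours only), 31 were protein-coding, 2 were long non-coding RNAs and 1 was a microRNA gene. The most abundant genes come first, in the order of their mean PG level, and the later ones are grouped by kind. No gene lengths were used, so this order is one of counts and not of transcript numbers.

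Of the 12 most abundant genes, 11 are given with the count of every library. Each "at least" fold, here and for later genes, is the nominal bound against 3 counts over the PV libraries. Among the 12, the highest bound fell to 5.66 with 9 counts over PV as the limit and to 4.20 with 3 counts in each PV library. BX119909.1 (ENSDARG00000093431) had 28, 21 and 5 counts in PG replicates 1, 2 and 3, and was at least 17-fold higher in PG. PG replicate 3 was the low library, at 0.400 CPM against 0.885 and 0.833 CPM. The gene name table gives this identifier the symbol iqcb1, which it also gives to ENSDARG00000101032. In vertebrates iqcb1 encodes nephrocystin-5, a protein of the ciliary transition zone, and the identity of BX119909.1 is uncertain for that reason. FP015862.3 (ENSDARG00000098038), which has no other name, had 26, 14 and 9 counts and was at least 16.8-fold higher. Its 3 PG levels lay close together, with a coefficient of variation of 19.3%.

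Spink2.7, a gene for a Kazal-type serine protease inhibitor, had 28, 17 and 4 counts in PG replicates 1 to 3. Its level was highest in replicate 1 at 0.885 CPM, lowest in replicate 3 at 0.320 CPM, and at least 15.1-fold higher in PG. Drc3, which encodes a subunit of the nexin-dynein regulatory complex of motile cilia, had 18, 16 and 7 counts and was at least 14.1-fold higher. Its levels of 0.569, 0.634 and 0.560 CPM were nearly equal in the 3 libraries, with a coefficient of variation of 6.92%.

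The lncRNA si:ch211-160d14.9 had 15, 12 and 8 counts and was at least 12.8-fold higher. The protein-coding gene si:ch211-217i17.1 had 16, 11 and 8 counts and was at least 12.7-fold higher. Both were highest in PG replicate 3, at 0.640 CPM each. Cabp2b, whose product binds calcium and modulates calcium channels of sensory cells, had 23, 11 and 5 counts, was highest in replicate 1 and was at least 12.5-fold higher. Asb2b, which encodes a substrate adapter of a ubiquitin ligase, had 7, 7 and 13 counts and was at least 12.3-fold higher. Its level rested on replicate 3, at 1.04 CPM against 0.221 and 0.278 CPM, the highest level of any of the 57 genes in a single library. Without replicate 3 the bound was 6.0 in place of 12.3.

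BX005392.4 had 21, 8 and 6 counts and was at least 11.7-fold higher. It is named by clone only, and its highest library was PG replicate 1. Dhrs11b.2, a gene for a short-chain dehydrogenase whose human relative acts on steroids, had 13, 16 and 4 counts and was at least 11-fold higher. Pdzd7a, a scaffold protein of the Usher complex in the stereocilia of hair cells, had 9, 17 and 4 counts and was at least 10.3-fold higher. Both of these were highest in PG replicate 2, at 0.634 and 0.674 CPM.

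Receptors, channels and transporters made up a further group. Slc7a10b, a paralog of the exchanger of small neutral amino acids Asc-1, had 10, 15 and 3 counts and was at least 9.23-fold higher in PG. Gucy2ca, one of a pair of zebrafish genes for guanylate cyclase C, which in mammals is the gut receptor of guanylin, had 8, 14 and 4 counts and was at least 9.04-fold higher. Kitb, one of the duplicated receptors of Kit ligand, had 9, 9 and 4 counts. Its levels of 0.285, 0.357 and 0.320 CPM were close to each other, and it was at least 7.71-fold higher. Kcnj3a, a subunit of G protein gated potassium channels, had 5, 5 and 6 counts, which placed its highest level in PG replicate 3.

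The other receptor genes were close to the depth limit. Chrm5b, a muscarinic acetylcholine receptor, had 8, 4 and 2 counts. The serotonin receptor gene htr1aa had 4, 4 and 2 counts, and htr1d had 1, 4 and 1. The odorant receptor gene or6at1 had 5, 3 and 3 counts, and nitr1a, an immune-type receptor of bony fishes, had 2, 4 and 3. Lrrc52, whose mouse counterpart encodes an auxiliary subunit of potassium channels, had 2 counts in every PG library. For these 6 genes the bounds ran from 4.58 for chrm5b to 2.17 for htr1d.

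Enzymes, nuclear proteins and matrix proteins followed. Rce1b, a protease that trims prenylated proteins, had 2, 4 and 9 counts and the widest spread of the 57 genes, with a coefficient of variation of 113% and its highest level in PG replicate 3. LCT, the symbol of lactase, had 4, 12 and 4 counts, and b3gat2, a glucuronyltransferase, had 2, 7 and 4. A second identifier that shares the symbol LCT is not among the 57 genes. It had 2, 9 and 0 counts in PG and 0, 0 and 5 in PV. Nr5a5, a nuclear receptor of the Nr5a family, had 4, 9 and 2 counts, and srrm3, a splicing regulator known from neurons, had 3, 6 and 3. Of these 5 genes LCT alone reached 10 counts in a library, in PG replicate 2.

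The gene called LTBP4 in the study's supplement, the symbol of a protein that binds latent TGF-beta, had 12, 5 and 4 counts and has a clone name in the gene name table. Lgals3bp.3, a galectin-3-binding protein gene, had 8, 7 and 5 counts, and mxf, one of the interferon-induced Mx GTPases, had 14, 5 and 3. The keratin gene krt93 had 6, 6 and 2 counts. Enam, the symbol of the enamel matrix protein enamelin, had 2, 2 and 4, and sh3bp1 had 2, 4 and 2. FAM219A had 2, 9 and 2 counts under a symbol that it shares with a second identifier. Of these 7 genes lgals3bp.3 had the highest bound, at 7.46, followed by LTBP4 at 7.20 and mxf at 7.06.

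Small RNA genes were counted as well. MIRLET7F2, a gene of the let-7 microRNA family, had 8, 3 and 3 counts, SCARNA8, a guide RNA of Cajal bodies, had 3, 2 and 1, and dre-mir-19a had 2, 1 and 1. A gene for U1, the spliceosomal RNA, had 1 count in each PG library. These are reads assigned to annotated genes and do not measure mature microRNAs.

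The 24 genes with a clone name or identifier alone had between 3 and 54 counts over the PG libraries, with a median of 14, against a median of 15 for the 33 genes with symbols. Of these, 5 stood among the 12 most abundant and were described with them. For the other 19 the sums ran from 3 to 25 counts and the bounds from 1.21 to 8.34. The highest of these, si:dkey-176g4.5, had 9, 13 and 3 counts. At the other end, si:dkey-109m8.1 and ENSDARG00000104971 had 1 count in each PG library, as U1 did, and these 3 genes lay exactly at the inner edge of the rule.

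The levels of the genes differed between PG libraries, at median counts of 5, 5 and 4 in replicates 1, 2 and 3. The part of counting error in this spread was not tested. The median coefficient of variation over the 3 PG libraries was 43.6% for the 57 genes and 35.6% for the 12 most abundant. For the 2137 genes that had counts in every PG library and no more than 54 in all, it was 39.2%. On the CPM scale 30 of the 57 genes were highest in PG replicate 3, 16 in replicate 2 and 11 in replicate 1. The lowest level fell in replicate 1 for 32 genes, in replicate 2 for 16 and in replicate 3 for 9. In replicate 3, which had the fewest counts, 1 count was worth 0.0800 CPM, the level at which U1 stood there, against 0.0316 CPM in replicate 1 and 0.0396 CPM in replicate 2. The rule asked for at least 1 count in each, so a low level could pass more easily in replicate 1 than in replicate 3.

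The share of genes found in every PG library that were at 0 in PV differed with abundance. Of the genes with 3 to 9 counts over the PG libraries, 14 of 184 (7.61%) were at 0 in PV. The share was 22 of 443 (4.97%) for genes with 10 to 19 counts, 10 of 492 (2.03%) for those with 20 to 29, and 11 of 1018 (1.08%) for those with 30 to 54. It fell in every step of abundance. In the opposite direction, 234 genes had counts in every PV library and 0 in every PG library, with between 3 and 135 counts and a median of 19. By the same steps of abundance, 14.9%, 13%, 7.1% and 4.2% of the genes found in every PV library were at 0 in PG, so the share was higher in that direction in all 4 steps. These shares describe 6 libraries and were not tested.

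**Figure D3:**
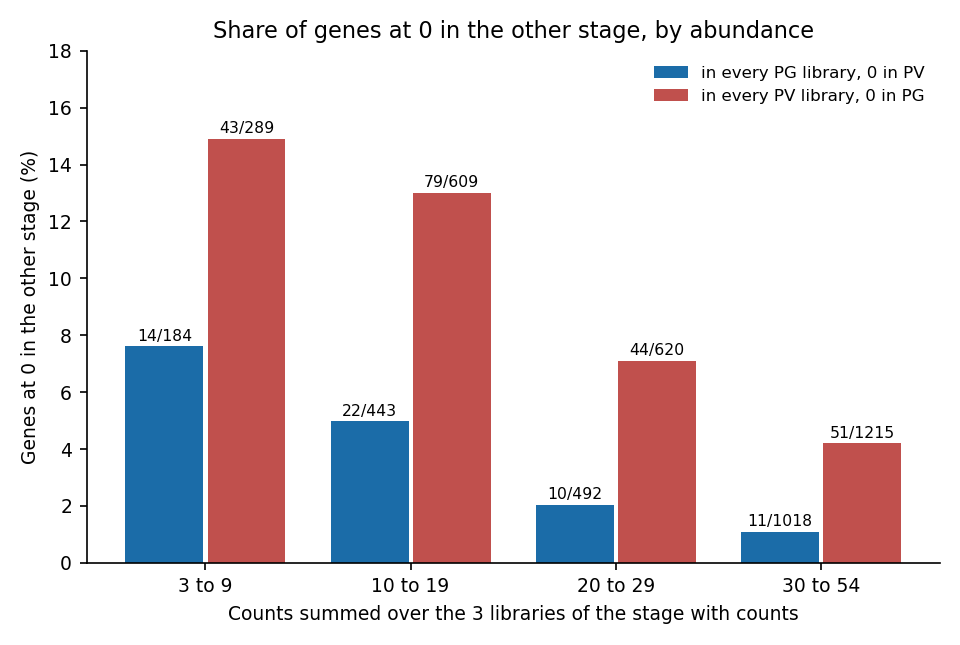
Percentage of genes at 0 in every library of the other stage (y axis) by counts summed over the stage in which they had counts in every library (x axis), with the numbers of genes above the bars. Blue bars (PG only) fall from 7.61% to 1.08%, and red bars (PV only) from 14.9% to 4.2%.

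The rule left out many genes by narrow margins. Among genes without PV counts, 1008 had counts in 1 PG library only, 268 in 2 and 57 in 3. Of the 268, PG replicate 3 was the library without counts for 177, replicate 2 for 48 and replicate 1 for 43. On the side of PV counts, 53 genes with counts in every PG library had only 1 or 2 in PV. Kcnn4, a calcium-activated potassium channel gene, had 19, 23 and 8 counts in PG and 0, 2 and 0 in PV, and si:ch211-182a13.1 had 20, 10 and 14 in PG and 0, 2 and 0 in PV. By PG counts both would have ranked among the 12 most abundant genes, and they were named after their values were seen.

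The most abundant genes that were seen in PG alone did not meet the rule. Si:dkey-19d21.2 had 142, 120 and 0 counts in PG and 0 in every PV library, whereas its mean level in PG replicates 1 and 2 would have given 57.8 counts in replicate 3. ENSDARG00000094658 had 72, 45 and 0 counts, where 25.4 would have been reached in replicate 3. A single library held all 605 counts of fthl30, a ferritin heavy chain-like gene, and all 221 of ENSDARG00000094021. These 4 genes were chosen after their values were seen, and each had more PG counts than any of the 57.

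The number of genes chosen changed with the form of the rule. With a minimum of 3 counts in each PG library there were 32 genes, with a minimum of 5 there were 10, and with a minimum of 10 there were 0. With up to 3 counts allowed over the PV libraries there were 169. Leaving out 1 library at a time gave between 91 and 234 genes. Without PG replicate 3 there were 234, without PG replicates 1 and 2 there were 100 and 105, and without PV replicates 1, 2 and 3 there were 124, 91 and 134.

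**Figure D4:**
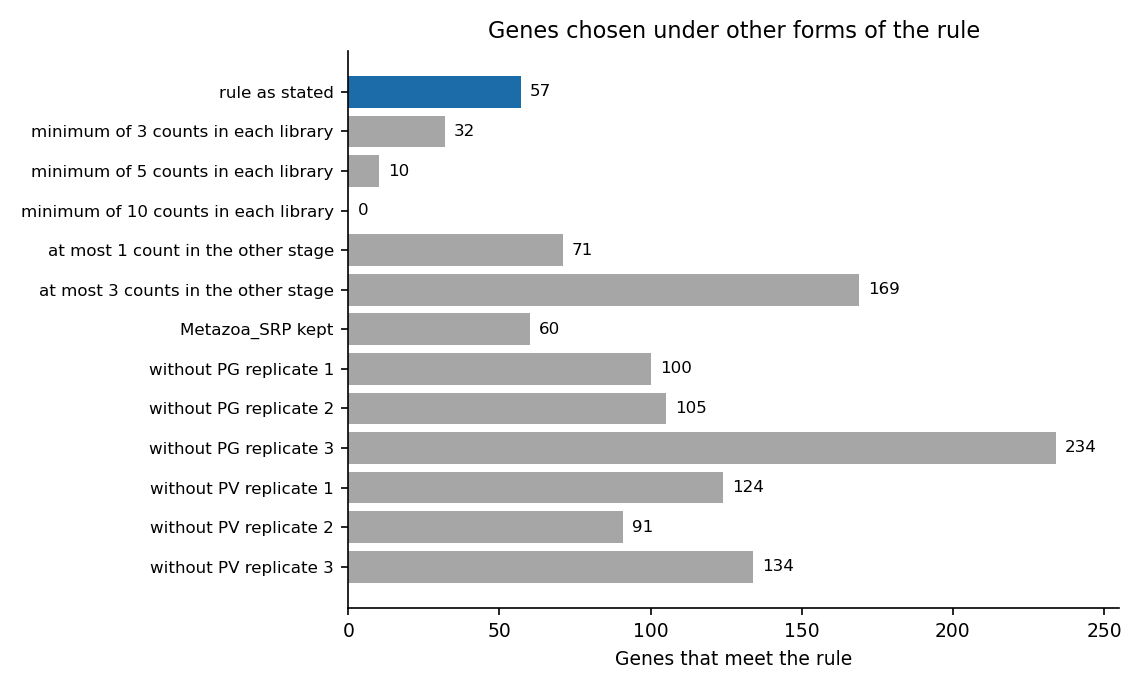
Number of genes that meet the rule as stated (57, blue) and under other forms of it (grey). The number falls to 0 with a minimum of 10 counts in each PG library and reaches 234 without PG replicate 3.

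Only 2 of the 57 genes, drc3 and FP015862.3, had enough counts to pass the filter on low counts in the model across all genes. They passed it through the PG libraries alone and so had to differ. Both were called lower in PV by edgeR, for which the adjusted p had to be 0.05 or below and the log2 fold change 1 or more in size, where 5.97% of the 15899 tested genes were called lower. Without the filter 29 of the 57 were called lower, against 4.23% of all 23059 genes then tested. DESeq2 gave an adjusted p for 49 of them and called 37 lower, against 4.91% of the genes for which it gave one. The rule used the same counts, so these numbers only restate how the genes were chosen.

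Other genes of the same families and complexes were measured in both stages and were not chosen by the rule. Of 89 genes listed, mostly for the families of the better known members, 79 were identified, 11 of them among the 57. A list of 6 gonadotropin-releasing hormone and receptor genes was included although none of them was among the 57. Of the other 68, 11 were at 0 in every library, and 29 passed the filter. By edgeR 6 of these 29 were called higher in PV and 4 lower, where 13.2% of all tested genes were called higher and 5.97% lower. Their median log2 fold change was -0.03, against 0.03 over all tested genes. The receptor gene gnrhr2, with 23, 25 and 14 counts in PG and 10, 4 and 14 in PV, was among those called lower (log2 fold change -1.27, adjusted p = 0.0426). Positive log2 fold changes denote higher levels in PV, and the SE was taken from the F statistic of the quasi-likelihood test.

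Slc7a10a, the paralog of slc7a10b, had 43, 29 and 14 counts in PG and 189, 109 and 124 in PV, and it rose with a log2 fold change of 2.25 ± 0.21 (SE, adjusted p = 9.06e-06). Its PG and PV levels did not overlap. Among the guanylate cyclases, gucy2d, a retinal guanylate cyclase, had 170, 104 and 41 counts in PG and 50, 41 and 50 in PV and fell by 1.13 ± 0.24 (SE, adjusted p = 0.00194). That call was lost without PG replicate 1, where the log2 fold change was -0.92. The natriuretic peptide receptor gene npr1a had a log2 fold change of -0.79 ± 0.08 (SE), which was below the fold threshold.

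**Figure D5:**
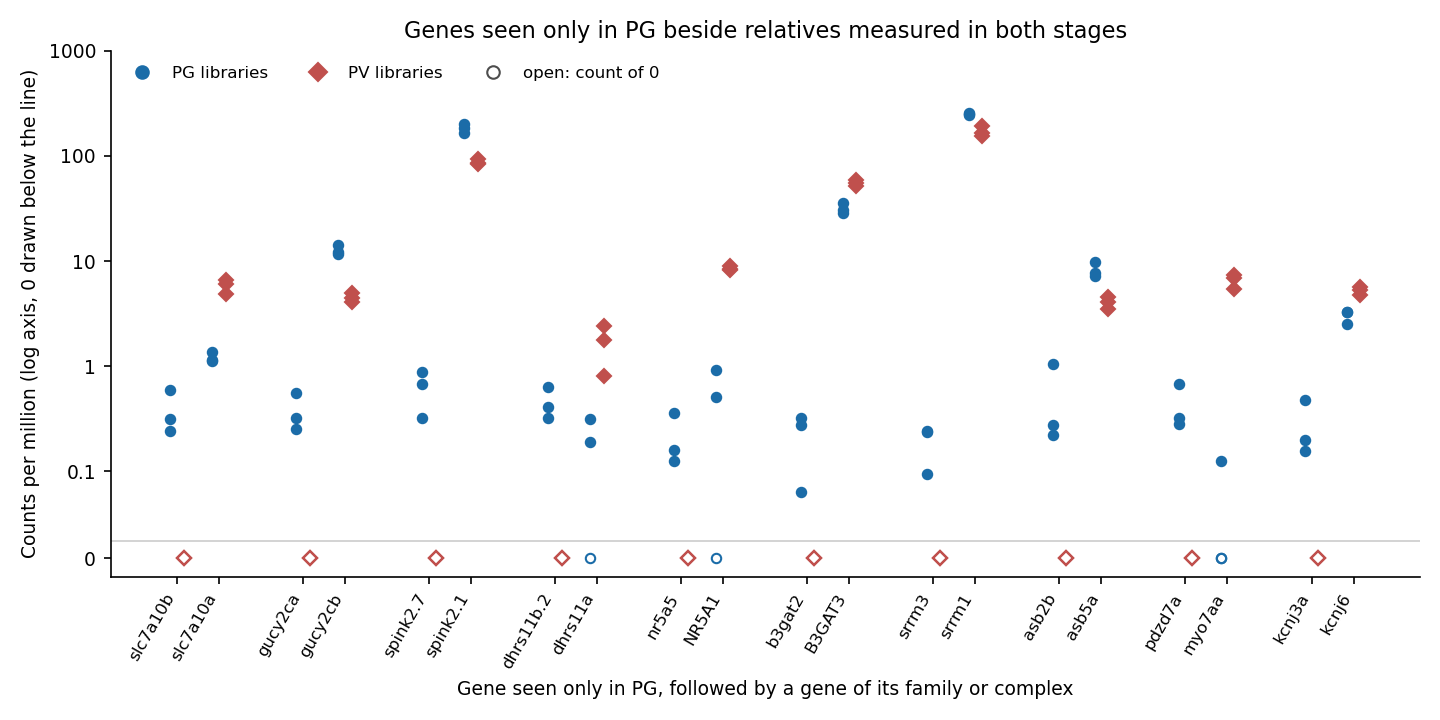
Levels of 10 of the 57 genes in the 3 PG (blue circles) and 3 PV libraries (red diamonds), each followed by a gene of the same family or complex, in CPM on a log axis with counts of 0 drawn as open symbols below the line. Slc7a10a, dhrs11a and NR5A1 stand higher in PV, and gucy2cb, spink2.1 and asb5a stand higher in PG.

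For the Kit system, the genes around kitb were sparse. The receptor gene kita, which the name table calls KIT, had 15, 17 and 0 counts in PG and 24, 2 and 0 in PV and was too low to test. The ligand gene kitlga had 19, 8 and 3 counts in PG and 57, 15 and 24 in PV. It rose with a log2 fold change of 1.62 ± 0.53 (SE, adjusted p = 0.0213), but the call was lost without PG replicate 2 (1.45, adjusted p = 0.0773) and without PV replicate 1 (1.12, adjusted p = 0.141). The other ligand gene, kitlgb, had 4 counts in PG replicate 1 and none elsewhere.

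Axonemal and Usher genes gave no common direction beside drc3 and pdzd7a. Of 5 tested genes of the nexin-dynein regulatory complex and axonemal assembly, 1 was called higher and 0 lower. Ccdc39, an assembly ruler of the axoneme, had 18, 16 and 0 counts in PG and 55, 32 and 31 in PV and rose with a log2 fold change of 1.84 ± 0.61 (SE, adjusted p = 0.0228), which was lost without PV replicate 1 (1.72, adjusted p = 0.0865) or PV replicate 2 (1.79, adjusted p = 0.0631). Its partner ccdc40 had a log2 fold change of -0.54 ± 0.14 (SE), and gas8, another subunit of the complex of drc3, one of 0.39 ± 0.07 (SE), both below the fold threshold. Drc1, which nucleates that complex, was at 0 in every library. Myo7aa, the unconventional myosin of stereocilia, had 4, 0 and 0 counts in PG and 212, 124 and 141 in PV and rose with a log2 fold change of 6.73 ± 0.48 (SE, adjusted p = 1.13e-06). All of its PG counts came from replicate 1, and without that library, against counts of 0 alone, the fitted value was 10.18, which depends on the prior count and is no bound.

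Of a list of complement genes, 3 were tested, and none was called. C3a.1, a gene of the central complement component, had 264, 185 and 82 counts in PG and 117, 91 and 14 in PV, with a log2 fold change of -1.24 ± 0.50 (SE, adjusted p = 0.0504). It was called lower without PV replicate 2 (adjusted p = 0.0326), under RLE scaling (adjusted p = 0.0486) and without the filter on low counts (adjusted p = 0.0228), whereas DESeq2 gave an adjusted p of 0.238. PV replicate 3 was its low library, and without it the log2 fold change was -0.72. Cfb, a factor of the alternative pathway, had a log2 fold change of -1.03 ± 0.81 (SE, adjusted p = 0.29). Markers of liver, the main source of complement in vertebrates, summed to between 27.9 and 31.4 CPM in PG. In PV they summed to 20.9, 26.1 and 2.41 CPM, with PV replicate 3 low, and their part in the complement counts was not tested. All 5 liver markers were measured, none was at 0 in all libraries of a stage, and fabp10a and fetub were at 0 in PV replicate 3. Tfa (283, 235 and 39 counts in PV) and apoa2 (171, 126 and 9) were also low there, whereas apoa1a (7, 6 and 14) had its highest PV count there.

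Among ubiquitin ligase adapters, asb5a had 226, 249 and 97 counts in PG and 117, 62 and 117 in PV and fell by 1.02 ± 0.17 (SE, adjusted p = 0.000453), close to the fold threshold. It was not called without PG replicate 2 (-0.87) or PV replicate 2 (-0.94). Asb5b rose with a log2 fold change of 3.28 ± 0.89 (SE, adjusted p = 0.00886) from 4, 0 and 0 counts in PG to 24, 9 and 10 in PV, which was lost without PV replicate 1 (2.90, adjusted p = 0.0508). Without PG replicate 1, which held all of its PG counts, the fitted value was 6.69. Of the channel genes, kcnj6 had a log2 fold change of 0.81 ± 0.18 (SE), below the threshold, and kcnj3b, the paralog of kcnj3a, had 29, 37 and 5 counts in PG and 15, 14 and 10 in PV (adjusted p = 0.213). Tgfb2, a ligand of the TGF-beta list, fell by 1.05 ± 0.23 on the log2 scale (SE, adjusted p = 0.00258), a call that was lost without PV replicate 1 (-0.93) and without PV replicate 2 (-0.97). Ltbp1, a relative of the gene called LTBP4, had a log2 fold change of 0.91 ± 0.36 (SE, adjusted p = 0.0505), and of 1.25 without PG replicate 1 (adjusted p = 0.0285). No gene of the calcium-binding list with cabp2b and none of the Mx list with mxf had enough counts to be tested.

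For 14 of the 57 genes, further relatives were looked up by symbol after the values had been seen. Of these 38 relatives, 15 were tested, 3 were called higher and 3 lower, and 6 were at 0 in every library. Over all tested genes 13.2% were called higher and 5.97% lower. Gucy2cb, the other gene of the pair with gucy2ca, had 369, 306 and 177 counts in PG and 117, 89 and 116 in PV and fell by 1.48 ± 0.13 on the log2 scale (SE, adjusted p = 5.36e-06). Spink2.1 had 5230, 4614 and 2499 counts in PG and 2383, 1527 and 2426 in PV and fell by 1.06 ± 0.07 (SE, adjusted p = 9.77e-07), which was -0.99 and below the threshold without PG replicate 3. Spink2.10, of the same cluster, had 24, 18 and 14 counts in PG and 4, 4 and 11 in PV and fell by 1.65 ± 0.55 (SE, adjusted p = 0.0244). That call was lost without any 1 of the 3 PG libraries or of PV replicates 1 and 2 (adjusted p = 0.0501 to 0.0999), and also without the filter (adjusted p = 0.0579). Also in the cluster, spink2.6 had 58, 65 and 0 counts in PG and 8, 0 and 0 in PV, and spink2.11 had 8, 5 and 0 in PG and none in PV. In the RefSeq order spink2.7 lies between spink2.2 and spink2.3, both at 0 in every library.

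Dhrs11b.1, which lies next to dhrs11b.2, had 38, 15 and 20 counts in PG and 24, 4 and 16 in PV, which overlapped (log2 fold change -0.91 ± 0.55 (SE), adjusted p = 0.173). Dhrs11a had 6, 8 and 0 counts in PG and 51, 43 and 21 in PV and rose with a log2 fold change of 3.05 ± 0.67 (SE, adjusted p = 0.00271). One of the genes named NR5A1 (ENSDARG00000103176), the family of nr5a5, had 29, 13 and 0 counts in PG and 236, 159 and 216 in PV and rose with a log2 fold change of 3.86 ± 0.40 (SE, adjusted p = 1.5e-05). In mammals NR5A1 is steroidogenic factor 1, a regulator of genes of steroid synthesis. The other gene of that name had 0, 4 and 0 counts in PG and 20, 2 and 11 in PV and was too low to test. NR5A2 had 22, 7 and 3 counts in PG and 39, 27 and 17 in PV. It was called higher (log2 fold change 1.42 ± 0.54 (SE), adjusted p = 0.0418), though its PG and PV levels overlapped. This call too was not followed under the other settings.

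B3GAT3 had a log2 fold change of 0.81 ± 0.09 (SE), srrm1 one of -0.57 ± 0.07 (SE) and srrm2 one of 0.39 ± 0.07 (SE), all below the threshold. The second gene named FAM219A had 124, 105 and 39 counts in PG and 202, 116 and 210 in PV, with a log2 fold change of 0.93 ± 0.16 (SE) that passed the fold threshold without PG replicate 2 (1.01) or PV replicate 2 (1.00). The other identifier with the symbol iqcb1 had 133, 115 and 54 counts in PG and 179, 120 and 144 in PV, a log2 fold change of 0.50 ± 0.15 (SE). How alike the copies of the spink2, dhrs11 and lgals3bp genes are in sequence was not measured. Whether the authors' counting split reads between such copies was not tested.

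Overlapping genes may limit several assignments. Of the 31 protein-coding genes of the set placed in the RefSeq order, 9 (29%) overlapped another protein-coding gene. That is close to the 30.3% of all 27039 protein-coding genes. The sources name different library kits, only 1 of which keeps strand. Where exons of a gene and of an antisense partner overlap, their reads may therefore not have been told apart. Overlap here is that of whole gene spans, introns included, and exons were not compared. In RefSeq asb2b overlaps exd1 (2904, 2407 and 1237 counts in PG), slc7a10b overlaps faap24 (556, 388 and 234), chrm5b overlaps aven (1188, 988 and 469), rce1b overlaps adssl (6520, 5383 and 2721), and gucy2ca overlaps plbd1a (48, 33 and 7). All 5 partners had counts in every PV library as well. Mxf overlaps several genes, among them brwd1 (3784, 2776 and 1341 counts in PG and 4644, 3497 and 4654 in PV). Kitb overlaps clockb, which was not identified in the count table. Drc3, pdzd7a, b3gat2 and srrm3 overlapped no protein-coding, long non-coding RNA or microRNA gene of the RefSeq table, and other gene types were not compared. The overlaps are those of a newer assembly than the GRCz10 used for counting.

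The lists of cell type markers were summed beside these values. Of 65 markers listed, 53 were identified and 43 tested, of which 7 were called higher in PV and 12 lower, against 13.2% and 5.97% of all tested genes. Genes listed for early meiotic germ cells summed to between 233 and 237 CPM in PG and between 89.5 and 95.2 CPM in PV. Most of both sums came from piwil1, with means of 182.4 CPM in PG and 73.15 CPM in PV. Of the 5 tested genes of that list 4 were called lower, and sycp3 was level at 0.577 and 0.582 CPM. Of the 7 measured, dmc1 and rec8a were at 0 in every library. The study counts spo11, which is on this list, among oocyte-specific genes. The sums of this list therefore do not separate such cells from oocytes. Erythrocyte markers summed to between 29.5 and 38.7 CPM in PG and between 8.01 and 19.3 CPM in PV over 5 genes, none at 0 in a stage. Those of leukocytes summed to between 14.9 and 18.2 CPM in PG and between 15.4 and 16.9 CPM in PV over 6 genes, so the stages overlapped. The sums of gut and exocrine pancreas markers overlapped as well, from 3.68 to 7.65 CPM in PG and from 3.20 to 4.78 CPM in PV, with fabp2 at 0 throughout. Of the 3 tested genes of that list, prss1 and vil1 were not called. Ctrb1 was called lower, with 56, 22 and 5 counts in PG and 4, 0 and 11 in PV (log2 fold change -2.37 ± 0.80 (SE), adjusted p = 0.0255), though its levels overlapped.

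Multiciliated cell markers summed to between 4.96 and 6.20 CPM in PG and between 2.29 and 3.92 CPM in PV over 5 genes, of which rsph9 and tekt1 were at 0 in all PG libraries. Most of the PG sum came from dnah5, an axonemal dynein gene with 154, 113 and 57 counts in PG and 41, 14 and 21 in PV. Dnah5 fell by 2.16 ± 0.27 on the log2 scale (SE, adjusted p = 5.44e-05). Of the 3 tested genes of this list, dnah5 was called lower, ccdc39, given above, was called higher, and foxj1a was not called. Muscle markers summed to between 1.04 and 1.77 CPM in PG and between 0.224 and 1.09 CPM in PV over 2 genes. Only elavl3 was measured of the neural markers, and it was at 0 in every library. Theca and steroid cell markers summed to between 236 and 247 CPM in PG and between 137 and 147 CPM in PV over 3 genes. The sums came mostly from cyp17a1, whose log2 fold change of -0.91 was below the fold threshold. Hsd3b1 went the other way, from 0.900 to 12.4 CPM (log2 fold change 3.77 ± 0.21 (SE), adjusted p = 2.53e-07). Star was too low to test, at 0.095 CPM in PG and 0.277 CPM in PV. The part of the listed cell types in the counts of the 57 genes was not tested.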

How the data were processed

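The authors aligned reads to GRCz10 with TopHat2 and deposited raw counts per Ensembl gene, which StringTie's prepDE derives from coverage, together with a signal in which the counts are divided by 1 DESeq2 size factor per library (0.554 to 1.42). Raw counts were used throughout, and the signal only to check that relation. Each stage had 3 libraries, and 3 counts were worth 8.2e-06% to 2.07e-05% of a library. RNA came from 3 groups of 3 fish per the study's methods, and each group gave both PG and PV follicles. The stages therefore share fish, but no source ties the library numbers to these groups.

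The members and gene lists were chosen with earlier results of these data known. Named in full were the 12 genes of highest mean PG level, except 1 that is not reported here. Names came from the study's supplement, which was held in part, and a gene name table; the 3 Metazoa_SRP genes were named by that table only. Levels were scaled by TMM in edgeR 4.0.16 (R 4.3.3, limma 3.58.1). All 15899 genes that passed filterByExpr (minimum count 10, minimum total 15) entered edgeR's quasi-likelihood test (stage as factor, Benjamini-Hochberg adjustment). The test was first run on counts drawn for the same genes with known changes. Alternatives were RLE scaling, library totals, no filter, a replicate block, DESeq2 1.42.0, other limits in the rule, and the omission of each library. Figures were drawn with matplotlib 3.10.9.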

Additional observations from a re-analysis of the deposited data

How the results depend on the processing

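The number of genes seen only in PG was 57, and became 32, 10 and 0 with minimums of 3, 5 and 10 counts, 169 with up to 3 PV counts, and 91 to 234 with a library left out. The 234 genes of the opposite pattern became 91 and 31 with minimums of 5 and 10 counts, 479 with up to 3 PG counts, and 269 to 551 with a library left out. For the 12 most abundant genes, the median bound of 12.7 became 3.14 with 3 counts in each PV library as the limit, 4.24 with 9 counts over PV, 9.53 under scaling by library totals, and 12.5 to 13.7 without 1 PG library. Single bounds of these genes then ran from 6.0 (asb2b, without PG replicate 3) to 20.7. Of the 57, 2 were called lower in PV, against 29 without the filter, 37 by DESeq2 and 2 to 8 without 1 library. More of the rare genes are tested without the filter and by DESeq2. For each omission of 1 library the filter was set anew, with fewer libraries in the smaller stage. Its part in the change without 1 library was not tested. Under library totals 415 genes were called lower and 3664 higher, in place of 949 and 2105, only 4 in place of 16 list genes were called lower, and the middle log2 fold change over tested genes moved from 0.03 to 0.45. Among the relatives followed singly there, the calls of gucy2d, spink2.1, spink2.10, tgfb2 and asb5a were lost, and B3GAT3, kcnj6, ltbp1 and FAM219A were called higher. Gnrhr2 and NR5A2 were not followed singly.

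Libraries with the same number did not deviate together (correlations of -0.015, -0.005 and 0.023 over 12229 genes, with -0.046 to 0.065 for the other pairs). With 3 libraries per stage, such correlations cannot show which libraries share fish. The main test did not take the numbers as pairs. With the replicate block 860 genes were called lower and 1983 higher, 2 of the 57 lower, and 14 and 11 list genes lower and higher. With it c3a.1 was called lower (log2 fold change -1.39, adjusted p = 0.0321).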
